A study of Lotus japonicus with 18 samples.

Results

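The response of wild-type (WT) shoots of the legume Lotus japonicus to salt was measured on polyadenylated RNA by sequencing, as the difference between 3 libraries from plants given 100 mM NaCl and 3 libraries from control plants. All 20433 genes with at least 1 FPKM (fragments scaled by gene length and library size) in at least 3 libraries of the deposited table were described, out of 33994 entries, and 13561 entries lay below that level. Of the 20433, 1579 were assembled transcripts without a gene model, 15520 carried a protein name by similarity, and 1389 reached the level only with the help of the mutant libraries. Both groups were WT plants of 34 days of growth on Hornum nutrient solution, harvested 4 hours into the light. In the salt group NaCl was raised in steps of 50 mM each 4 days, and the final 100 mM was held for about 2 days. The same study held control and salt shoots of 2 lines knocked out for LjMYB36, labelled line1 (Lmyb36-1) and line2 (Lmyb36-2). MYB36 is a transcription factor known from the root endodermis of Arabidopsis. The lines have 3 libraries a group, and these 12 libraries enter here in the estimate of the spread and where the WT response is compared with theirs. The labels call the replicates biological and do not say whether they came from separate pots, so p-values measure the spread between these samples.

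Salt reaches a leaf first as a shortage of water and then as sodium and chloride ions carried up in the xylem. Shoots are known to answer with sodium exclusion and storage in the vacuole, calcium sensing through calcineurin B-like proteins, abscisic acid (ABA) signalling that closes stomata, solutes that keep water in the cell, and a change in growth through auxin, gibberellin and cell wall enzymes. In many plants the circadian clock, sugar and starch metabolism, mineral nutrition and the salicylate branch of immunity are tied to this response. The gene groups below follow that order, from ion transport to growth, light and the clock, carbon, nutrients and immunity.

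The 6 WT libraries held between 48262582 and 83420035 reads recovered from FPKM and gene length. Transcript profiles correlated between 0.971 and 0.986 within a WT group and between 0.934 and 0.953 across the groups (Pearson's r of log2 values over genes within pairs of libraries, as a description). Photosynthetic markers marked all 6 libraries as green shoot tissue, with summed levels of 74642 to 96577 FPKM in control and 88236 to 103900 FPKM in salt. Root and nodule markers reached at most 0.0572 and 0.257 FPKM in any WT library, and 0 of 5 of each passed the filter. Flower and pollen markers reached up to 197 FPKM and seed storage markers up to 11 FPKM in a WT library, so these were not absent. Of 8 tested flower and pollen markers 0 rose and 2 fell, and of 3 tested seed storage markers 0 were called. The first 10 and the last 8 columns of the deposited table part the libraries along the main axis of variation within groups (30.8% of that variance), and the last 8 hold WT control replicate 2 and WT salt replicate 1. No label says what the column order stands for.

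Salt changed 3323 genes (16.3% of those tested) at an adjusted p below 0.05 in limma: 1298 rose (6.35%) and 2025 fell (9.91%). The falls were deeper than the rises. The median log2 change was 0.62 among the genes that rose and -0.96 among those that fell, and over all tested genes it was 0.01. At least 2-fold changes were 254 rises and 966 falls, at least 4-fold 21 and 311, and at least 8-fold 2 and 109, measured as log2(FPKM + 0.5), a scale that makes changes of low genes look smaller. In 3272 of the called genes the 3 salt libraries did not overlap the 3 control libraries, against 6252 (30.6%) of all tested genes. Called genes were spread over the 6 chromosomes at 15.9% to 17.1% of the genes tested on each, while 0 of 102 chloroplast-encoded and 0 of 42 mitochondrial genes were called in this poly(A) selected RNA. Highly expressed genes were called more often: with genes split into 4 equal groups by mean FPKM, 10.3% rose and 12.5% fell in the highest, against 2.82% and 7.11% in the lowest. In shoots made of many cell types, fewer cells of a type and less RNA per cell cannot be told apart.

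**Figure D1:**
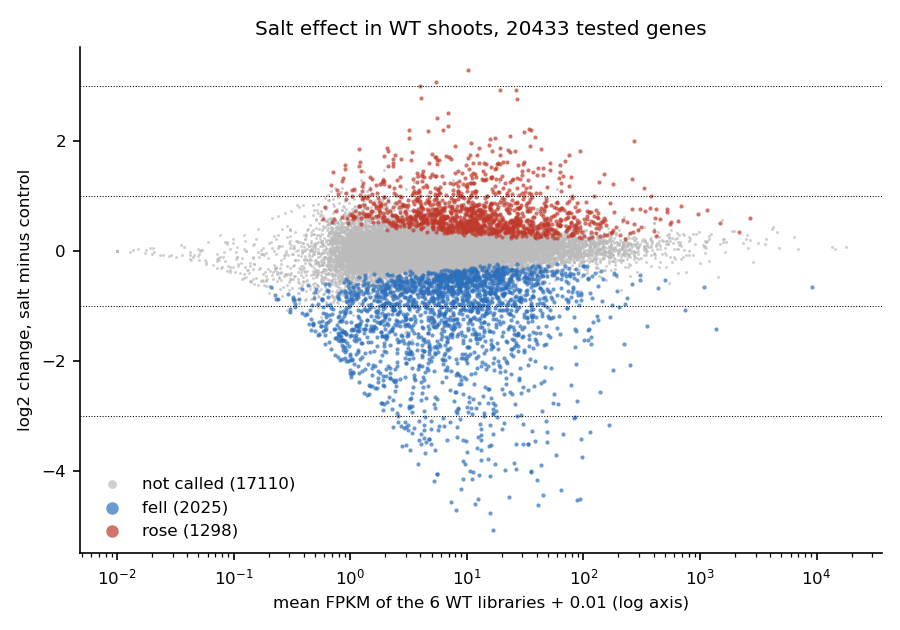
Log2 change with salt (vertical) against the mean FPKM of the 6 WT libraries (horizontal, log axis) for the 20433 tested genes. Each point is a gene, red for the 1298 that rose, blue for the 2025 that fell and grey for those not called, and dotted lines mark 2-fold and 8-fold changes. The cloud reaches further down than up, with 109 falls and 2 rises of at least 8-fold.

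Among sodium transport genes a calcium sensor and a xylem transporter rose. Of 10 tested genes of sodium exclusion and storage 2 rose and 0 fell, with a median log2 change of 0.08. That is 20% called, against 16.3% over all tested genes, and 5 members lay above 0 and 5 below. Calcineurin B-like protein 10 (CBL10, LotjaGi5g1v0041500, chromosome 5, 6965551 to 6971969) is known in Arabidopsis as the calcium sensor that recruits the kinase SOS2 to protect shoots from sodium. It was at 8.15, 8.2 and 7.92 FPKM in the control libraries and 17.1, 21 and 24.2 FPKM in the salt libraries. Every salt library lay above every control library (limma log2 change 1.29 with SE 0.14, adjusted p = 2.29e-06). The other sensor of that pathway, CBL4 (SOS3 in Arabidopsis, known from roots), has 2 copies here, and they had log2 changes of -0.31 and 0.25 (limma adjusted p = 0.376 and 0.575). The genes described as sodium/hydrogen exchanger 7, the plasma membrane exporter known as SOS1, had log2 changes of -0.02 and 0.17 (limma adjusted p = 0.969 and 0.405). HKT1 (LotjaGi2g1v0234400), a transporter that takes sodium back from the xylem, stood at 5.04, 3.98 and 3.33 FPKM in control and 5.51, 6.41 and 6.02 in salt. The groups did not overlap and the change passed the threshold (limma log2 change 0.50 with SE 0.14, adjusted p = 0.024), but the call was lost in 8 of 21 alternative analyses, among them those without WT control replicate 2 or 3 or WT salt replicate 2 or 3, in which 1 gene of the list rose. The most abundant member, the vacuolar exchanger NHX2 (LotjaGi5g1v0216900), was at 54.5, 45.2 and 48.6 FPKM in control and 35.2, 40.9 and 42 in salt, and all 3 salt values lay below all 3 control values without passing the threshold (limma log2 change -0.33 with SE 0.14, adjusted p = 0.142).

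Further ion carriers moved in both directions. The share called was 25% for potassium carriers, 20% for anion channels, 10.3% for proton pumps and 30% for calcium sensors and kinases. Over all tested genes it was 16.3%, so the anion channel share was near that level and the proton pump share below it. Of 40 potassium channels and carriers 7 rose and 3 fell, and the rises came to 4 without WT control replicate 2 or WT salt replicate 2, and to 2 and 3 within the first 10 and last 8 columns. Potassium transporter 2 (LotjaGi1g1v0307900) was higher in salt, at 8.49, 6.96 and 6.79 FPKM in control and 13.4, 11.3 and 14.3 in salt (log2 change 0.77, limma adjusted p = 6.74e-05). The chloroplast antiporter KEA2 (LotjaGi3g1v0380300), which exchanges potassium for protons across the inner envelope, was lower, at 28.6, 24.8 and 26 FPKM in control and 16.3, 16.8 and 16.2 in salt (log2 change -0.67, limma adjusted p = 4.45e-05). Of 20 anion channel genes 1 rose and 3 fell (2 rises without WT control replicate 1, and 1 fall without that library or WT salt replicate 3). The gene that rose was CLC-b (LotjaGi1g1v0623400), which went from 66.5 ± 13.5 to 109 ± 6.53 FPKM (SD, n = 3, limma log2 change 0.72 with SE 0.15, adjusted p = 0.003). Among the 29 subunits of proton pumps 3 rose and 0 fell. The rises came to 1 without WT control replicate 3 or in the first 10 columns, and to 0 with the WT libraries alone. The most abundant of them, the vacuolar pyrophosphatase LotjaGi4g1v0279600, was at 260.3, 242 and 233 FPKM in control and 255, 234 and 218 in salt, with overlapping groups (limma adjusted p = 0.749). Of 90 calcium sensors and kinases 11 rose and 16 fell. CIPK1 (LotjaGi4g1v0313800), a kinase that works with such sensors, rose from 10.6 ± 1.52 to 24.7 ± 3.32 FPKM (log2 change 1.19, limma adjusted p = 1.77e-06). CPK28 (LotjaGi4g1v0127800), known in Arabidopsis as a negative regulator of immune signalling, fell from 8.79 ± 0.669 to 2.22 ± 0.15 FPKM (log2 change -1.77, limma adjusted p = 6.40e-08).

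Genes of ABA and of protective solutes rose and fell in small numbers, and the shares that rose were near the 6.35% over all tested genes. In the ABA synthesis and breakdown list 1 gene rose and 5 fell of 15 (median log2 change -0.15). This is 40% called, against 16.3% over all tested genes, of which 9.91% fell, so the falls of this list were above that share. NCED1 (LotjaGi3g1v0145900), the rate-limiting step of ABA synthesis, was at 13.2, 10.2 and 6.72 FPKM in control and 3.56, 5.64 and 5.37 in salt. It passed the threshold as a fall (limma log2 change -0.95 with SE 0.29, adjusted p = 0.031), a call lost in 7 of 22 alternatives, among them those without WT control replicate 1 or 2 or WT salt replicate 1. The glucosyltransferase that stores ABA as its glucose ester (LotjaGi4g1v0077200) was lower in every salt library, at 8.0, 6.36 and 8.81 FPKM in control and 1.08, 0.996 and 3.44 in salt (limma log2 change -1.96 with SE 0.29, adjusted p = 8.47e-05). Of 27 ABA signalling genes 2 rose and 2 fell (1 fell without WT control replicate 1). They included the kinase SRK2E (LotjaGi2g1v0008600), the OPEN STOMATA 1 of Arabidopsis guard cells, which fell from 27.8 ± 2.19 to 17 ± 2.37 FPKM (log2 change -0.70, limma adjusted p = 9.56e-04). LEA proteins and dehydrins, which shield proteins in drying tissue, had 3 rises and 3 falls of 33. The most abundant, LotjaGi2g1v0447600, was at 300.4, 379 and 310.0 FPKM in control and 292, 228 and 237 in salt (limma adjusted p = 0.139). Among 39 genes of compatible solute synthesis 3 rose and 5 fell. Inositol-3-phosphate synthase, the entry to inositol and the methylated inositols of legumes, has an abundant copy, LotjaGi4g1v0399900, at 676, 616 and 546 FPKM in control and 543, 524 and 523 in salt, which was not called (limma adjusted p = 0.262). The less abundant copy LotjaGi6g1v0085700 was at 87.7, 84.7 and 82.1 FPKM in control and 153, 129 and 135 in salt, with separate groups (log2 change 0.70, limma adjusted p = 7.95e-06). The falls in ABA synthesis and breakdown came to 2 without WT control replicate 1 or WT salt replicate 1 and to 3 without WT salt replicate 2, and its rises to 2 without WT salt replicate 3. The solute falls came to 3 without WT control replicate 1 or 3 and to 2 without WT control replicate 2 or WT salt replicate 2.

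**Figure D2:**
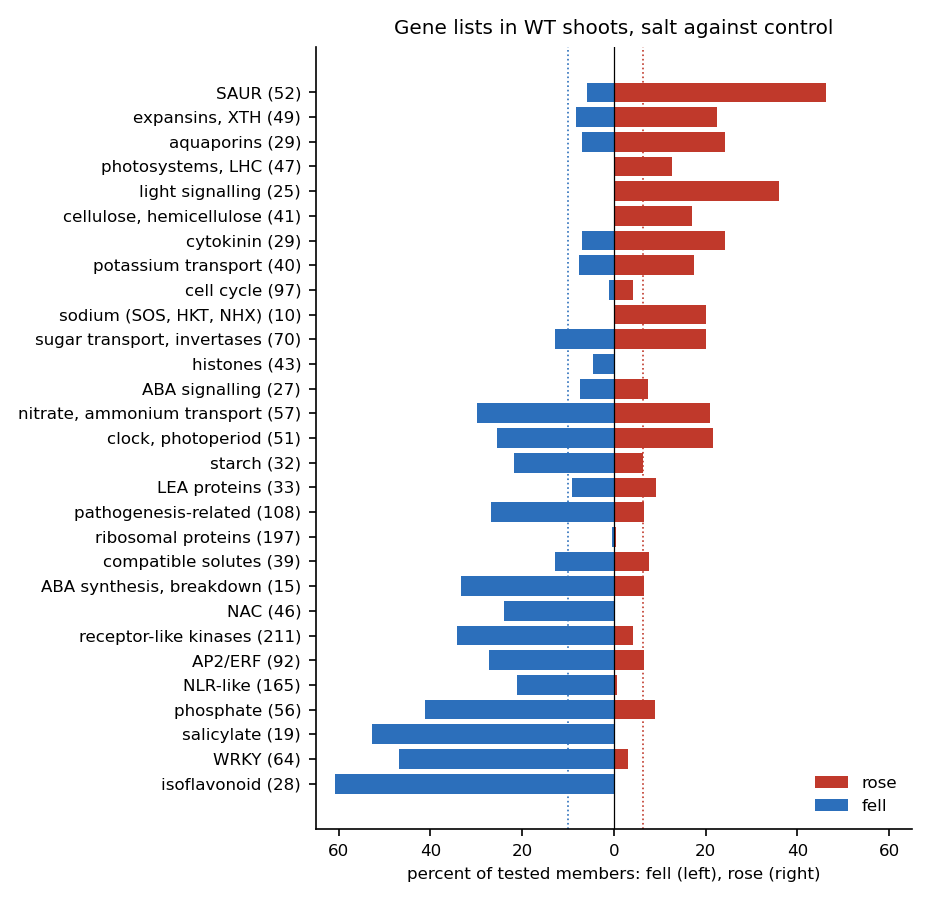
Share of the tested members of each gene list that rose (red, right) or fell (blue, left) with salt in WT shoots, with the number of tested members in brackets and lists ordered by their median log2 change. Dotted lines mark the shares over all tested genes, 6.35% for rises and 9.91% for falls. SAUR, light signalling, expansin and aquaporin lists reach past the line to the right, and the isoflavonoid, salicylate, WRKY and phosphate lists past the line to the left.

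Water channels were among the groups with more rises, and 31% of them were called, against 16.3% over all tested genes. Aquaporins had 7 rises and 2 falls of 29 and a median log2 change of 0.26, and 13 rises with the column block as a term in the model. The tonoplast channel TIP2-1 (LotjaGi3g1v0368200), which lets water into the vacuole, was at 182, 203 and 197 FPKM in control and 327, 326 and 338 in salt. The salt libraries lay apart from the controls and close to each other (limma log2 change 0.77 with SE 0.09, adjusted p = 5.38e-06). PIP2-7 (LotjaGi2g1v0359700), a channel of the plasma membrane, was higher too, at 10.9, 12.7 and 12.8 FPKM in control and 28.8, 22.8 and 26.1 in salt (log2 change 1.06, limma adjusted p = 3.62e-04). NIP1-2 (LotjaGi6g1v0317300), of a subfamily that also carries small solutes, was lower, at 119, 130.2 and 117 FPKM in control and 59.5, 59.9 and 65.6 in salt (log2 change -0.98, limma adjusted p = 8.77e-07).

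Auxin-inducible SAUR genes, whose small products promote cell expansion in Arabidopsis, rose together, and most of those that rose sit in 1 stretch of chromosome 3. Of 52 tested SAUR genes 51.9% were called, against 16.3% over all tested genes. Among the 52 SAUR genes 24 rose and 3 fell, with a median log2 change of 0.98. The stretch, between positions 93301597 and 93573899 in the coordinates of the deposited table, holds 31 of them, of which 21 rose and 0 fell (median log2 change 1.29, range -0.94 to 2.20, 30 of 31 above 0). The other 21 SAUR genes had 3 rises and 3 falls and a median of 0.12. Summed over the stretch, the level was 189, 213 and 253 FPKM in control and 527, 558 and 609 FPKM in salt. Among its more expressed members, auxin-induced protein 15A LotjaGi3g1v0517400 was at 19.2, 23.6 and 19.5 FPKM in control and 51.8, 52.8 and 77.4 in salt (limma log2 change 1.5 with SE 0.15, adjusted p = 1.36e-06). SAUR50 LotjaGi3g1v0515900, near the start of the stretch, was at 16.2, 11.1 and 14.4 FPKM in control and 40.9, 47 and 37.1 in salt (log2 change 1.56, limma adjusted p = 2.13e-06). In both genes every salt library lay above every control library. SAUR genes in a cluster can be near-identical copies, so reads may have been shared or split among them, and their values are not independent. Of the falls, SAUR36 (LotjaGi3g1v0207800) went from 15.1 ± 0.57 to 6.31 ± 1.79 FPKM (log2 change -1.23, limma adjusted p = 3.94e-04). Over the genome there were 16 runs of at least 4 neighbouring tested genes called in 1 direction, and the longest, of 6 genes each, were the pair of runs inside this stretch.

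**Figure D3:**
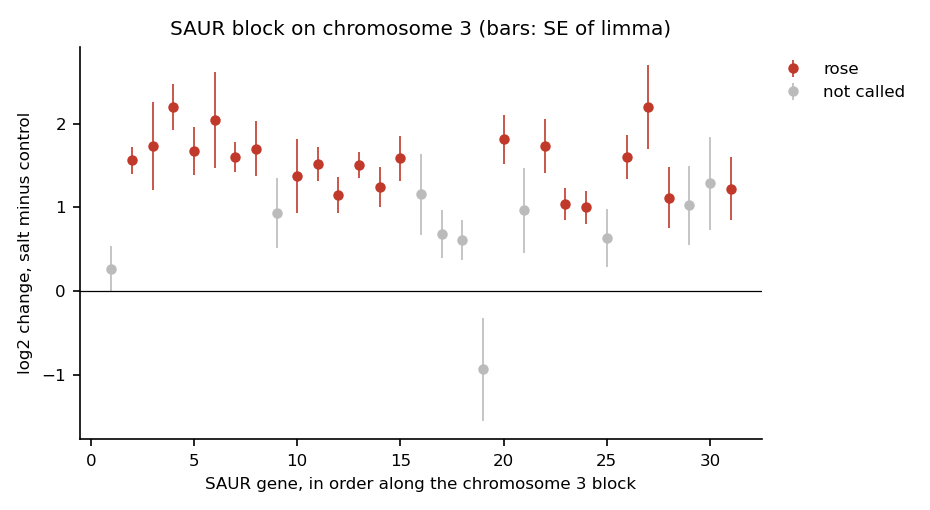
Log2 change with salt (vertical, bars are limma's SE) of the 31 tested SAUR genes of the chromosome 3 stretch, in their order along the chromosome (horizontal). Of these, 21 rose (red), 0 fell and 10 were not called (grey), and 1 lies below 0.

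Of 36 gibberellin genes 4 rose and 6 fell, with a median log2 change of -0.04. The shares called were 27.8% for gibberellin, 31% for cytokinin, 18.7% for auxin without SAURs and 24.5% for jasmonate genes. Over all tested genes the share was 16.3%, so the auxin share was near that level. Gibberellin 3-beta-dioxygenase 1 (LotjaGi3g1v0013500), which makes the active hormone, was at 1.66, 2.32 and 2.31 FPKM in control and 7.55, 9.01 and 5.61 in salt (limma log2 change 1.59 with SE 0.19, adjusted p = 8.99e-06). Gibberellin 20 oxidase 2 (LotjaGi5g1v0306700), the step before it, was at 4.43, 4.83 and 5.3 FPKM in control and 7.24, 8.02 and 8.06 in salt (log2 change 0.63, limma adjusted p = 9.80e-04). The inactivating gibberellin 2-beta-dioxygenase 2 (LotjaGi5g1v0242200) was lower, at 3.45, 3.48 and 3.58 FPKM in control and 1.28, 1.05 and 0.71 in salt (log2 change -1.42, limma adjusted p = 5.10e-05). The groups of each of these 3 genes were separate. Another such enzyme, gibberellin 2-beta-dioxygenase 1 (LotjaGi3g1v0146700), was at 8.33, 7.16 and 11.5 FPKM in control and 3.01, 2.88 and 5.92 in salt (log2 change -1.14, limma adjusted p = 0.0068), and the chitin-inducible gibberellin-responsive protein 1 (LotjaGi3g1v0094800), a low transcript, was at 0.844, 1.53 and 2.17 FPKM in control and 0.0741, 0.685 and 0 in salt (log2 change -1.47, limma adjusted p = 0.0029). The rises came to 2 without WT control replicate 1 or WT salt replicate 1, the falls to 3 without WT control replicate 1 or 2 or WT salt replicate 3, and both to 2 and 3 in the first 10 columns. Cytokinin genes had 7 rises and 2 falls of 29 (1 fall without WT control replicate 2 or WT salt replicate 1 or 2), led by cytokinin dehydrogenase 7 (LotjaGi5g1v0046100), an enzyme of cytokinin breakdown, which rose from 7.12 ± 1.65 to 20.2 ± 2.67 FPKM (limma log2 change 1.46 with SE 0.15, adjusted p = 1.94e-06). In the auxin list without SAURs 10 rose and 4 fell of 75 (2 fell without WT control replicate 1). They included the efflux carrier PIN3 (LotjaGi2g1v0062600), at 15.5, 14.3 and 15.6 FPKM in control and 30.1, 27.8 and 26.4 in salt (log2 change 0.87), and GH3.10 (LotjaGi3g1v0442000), of the family of amido synthetases, at 2.64, 2.16 and 2.75 FPKM in control and 10.3, 8.08 and 8.51 in salt (log2 change 1.65; limma adjusted p = 1.66e-05 and 1.97e-07). Jasmonate genes had 6 rises and 7 falls of 53. The synthesis enzymes allene oxide synthase 1 (LotjaGi5g1v0021300) and 12-oxophytodienoate reductase 2 (LotjaGi2g1v0453000) fell, with log2 changes of -1.13 and -1.19. The conjugating enzyme JAR6 (LotjaGi1g1v0790400) and the receptor COI1 (LotjaGi1g1v0081000) rose, with log2 changes of 1.69 and 0.76, and the largest adjusted p of these 4 was 2.72e-05 (limma).

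Genes of wall loosening and of cellulose rose more often than they fell. Called in either direction were 30.6% of the wall-loosening list and 17.1% of the cellulose list, against 16.3% over all tested genes. Of 49 expansin and xyloglucan endotransglucosylase (XTH) genes 11 rose and 4 fell (median log2 change 0.27), and of 41 cellulose and hemicellulose synthesis genes 7 rose and 0 fell, a count of rises that came to 3 in the first 10 columns. Expansin-A8 (LotjaGi1g1v0307600), one of the most abundant wall-loosening transcripts here, was at 221, 259.5 and 283 FPKM in the control libraries and 454, 512 and 559 FPKM in the salt libraries. The lowest salt value lay well above the highest control value (limma log2 change 1.00 with SE 0.16, adjusted p = 2.01e-04). XTH2 (LotjaGi4g1v0369600), which cuts and rejoins xyloglucan chains, was at 27, 33.4 and 34.4 FPKM in control and 106, 93.1 and 82.5 in salt (limma log2 change 1.55 with SE 0.16, adjusted p = 2.60e-06). Falls were in genes described as expansin-like B1: 3 of the 4 falling members bear that name, among them LotjaGi2g1v0419100, which went from 14.1 ± 5.1 to 2.58 ± 1.05 FPKM (log2 change -2.23, limma adjusted p = 2.49e-04). These 4 falls came to 1 in the first 10 columns, and to 2 with a mean of at least 5 FPKM, where fewer genes were tested. Few division genes were called, with 4 rises and 1 fall of 97 cell cycle genes and 0 rises and 2 falls of 43 histone genes. That is 5.15% and 4.65% called against 16.3% over all genes. Summed histone levels were spread widely between replicates, from 3400.5 to 5505.5 FPKM in control and 3931 to 4904.8 in salt, which limits what could be called. The 4 cell cycle rises came to 1 or 2 without any 1 of the WT libraries, the fall to 2 without WT salt replicate 1 or 2, and the 2 histone falls to 1 without WT control replicate 2 or WT salt replicate 2.

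Light signalling genes had 9 rises and 0 falls of 25 (median log2 change 0.21), a count that was 4 in the first 10 columns. The share called was 36% for light signalling and 12.8% for photosystem and light-harvesting genes, against 16.3% over all tested genes. PIF4 (LotjaGi6g1v0184600), a bHLH factor that promotes elongation growth in Arabidopsis, was at 26.6, 21.3 and 28.1 FPKM in the control libraries and 50.6, 58.1 and 49.9 FPKM in the salt libraries. Every salt library lay well above every control library (limma log2 change 1.05 with SE 0.14, adjusted p = 2.39e-05). The blue light receptors cryptochrome-1 (LotjaGi1g1v0145900) and cryptochrome-2 (LotjaGi5g1v0191200) rose from 38.1 ± 3.36 to 53.1 ± 0.748 FPKM and from 4.8 ± 0.907 to 9.73 ± 1.55 FPKM (log2 changes 0.48 and 0.95, limma adjusted p = 2.10e-04 and 4.00e-04). In the chloroplast, nuclear genes of photosystems and light harvesting had 6 rises and 0 falls of 47, with 42 of 47 above 0 (median 0.23). That count was 3 without WT control replicate 1 or 3 or WT salt replicate 3, 1 in the last 8 columns and 14 with the column block as a term. Rubisco activase, which keeps the carbon-fixing enzyme active, has 2 abundant copies that rose. LotjaGi1g1v0088000 was at 824, 892 and 869 FPKM in control and 1641, 1308 and 1405 in salt (limma log2 change 0.75 with SE 0.10, adjusted p = 3.25e-05), and LotjaGi6g1v0063500 went from 2149.8 ± 199 to 3268 ± 476 FPKM (log2 change 0.60, limma adjusted p = 0.0061). Protochlorophyllide reductase LotjaGi3g1v0076400, the light-driven step of chlorophyll synthesis, was lower, at 1249, 1416 and 1345 FPKM in control and 844, 827 and 884 in salt (log2 change -0.65, limma adjusted p = 7.40e-05). The cyclase before it, LotjaGi1g1v0654900, was higher, at 1241, 1239 and 1230.3 FPKM in control and 1827, 1737 and 1712 in salt (log2 change 0.51, limma adjusted p = 3.67e-04).

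Clock genes changed often and in both directions. Of 51 tested clock and photoperiod genes 24 (47.1%) were called, against 16.3% over all tested genes. They were 11 rises and 13 falls, and the median log2 change of the list was 0.01. Leaving out any 1 WT library gave 10 to 12 rises and 10 to 13 falls. All libraries were labelled with the same hour of harvest, and the clock members other than those of the naming rule were chosen after their values were seen. Morning-expressed LHY (LotjaGi3g1v0404800, chromosome 3, 80758036 to 80772566), a MYB factor of the central loop in Arabidopsis, was at 41.3, 32.8 and 37.6 FPKM in the control libraries and 103, 95.2 and 91.6 FPKM in the salt libraries. Even the lowest salt library lay far above the highest control library (limma log2 change 1.37 with SE 0.12, adjusted p = 2.78e-07). Its relative REVEILLE 8 (LotjaGi5g1v0073100), an activator of evening genes in Arabidopsis, was at 19.2, 19.3 and 19.5 FPKM in control and 44.4, 50.8 and 48.5 in salt, and these groups were apart as well (limma log2 change 1.28 with SE 0.13, adjusted p = 2.21e-06). Cyclic dof factors, known in Arabidopsis as repressors of flowering, rose in 4 of 8 tested genes of that name, the strongest being LotjaGi1g1v0220800 at 4.68, 3.8 and 4.02 FPKM in control and 19.9, 16.2 and 16.9 in salt (limma log2 change 1.96 with SE 0.10, adjusted p = 1.41e-09). CONSTANS-LIKE 2 (LotjaGi1g1v0523200), a photoperiod zinc finger protein, rose from 11.7 ± 1.31 to 56.2 ± 6.96 FPKM (limma log2 change 2.22 with SE 0.11, adjusted p = 1.01e-09).

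The genes that fell included relatives of LHY as well as clock genes known in Arabidopsis from the later day and evening. REVEILLE 6 (LotjaGi5g1v0296400), a close relative of REVEILLE 8, was at 50.8, 37.5 and 44.9 FPKM in control and 1.38, 2.51 and 0.931 in salt (limma log2 change -4.47 with SE 0.24, adjusted p = 1.74e-09). REVEILLE 1 (LotjaGi1g1v0099700), another relative, was at 9.53, 6.72 and 8.28 FPKM in control and 2.19, 2.98 and 3.56 in salt (limma log2 change -1.35 with SE 0.21, adjusted p = 1.30e-04). In both genes every salt library lay below every control library. APRR1 (LotjaGi4g1v0251000, chromosome 4, 60463792 to 60468918), called TOC1 in Arabidopsis, where it peaks in the evening, was at 44, 47.8 and 50.4 FPKM in the control libraries and 8.12, 9.36 and 9.27 FPKM in the salt libraries. The 2 groups were tight and far apart (limma log2 change -2.35 with SE 0.15, adjusted p = 1.26e-08). GIGANTEA (LotjaGi5g1v0287700) was at 109.7, 77.1 and 95.2 FPKM in control and 27.3, 33.5 and 36.9 in salt (limma log2 change -1.51 with SE 0.18, adjusted p = 9.47e-06). Its partner in photoperiod sensing, the blue light receptor Adagio protein 3 (LotjaGi4g1v0457700, FKF1 in Arabidopsis), was at 25.5, 35.7 and 31.4 FPKM in control and 3.42, 3.83 and 4.69 in salt (limma log2 change -2.81 with SE 0.21, adjusted p = 5.27e-08). LUX (LotjaGi3g1v0490000), of the evening complex, was at 4.13, 3.18 and 3.37 FPKM in control and 0.781, 1.64 and 0.843 in salt (limma log2 change -1.39 with SE 0.23, adjusted p = 2.93e-04). In contrast, its partner ELF3 was not called in either copy, with log2 changes of -0.01 and 0.21 (limma adjusted p = 0.981 and 0.211). Pseudo-response regulators split by copy. APRR5 LotjaGi1g1v0297400 was at 63.1, 51.9 and 56.4 FPKM in control and 5.57, 11.3 and 13.3 in salt (limma log2 change -2.53 with SE 0.28, adjusted p = 4.38e-06), while the copy LotjaGi1g1v0796900, of like control level, was at 69.7, 52.1 and 53.9 FPKM in control and 47.1, 64.3 and 81.8 in salt with overlapping groups (limma adjusted p = 0.786). PRR73 (LotjaGi2g1v0365500), the most abundant of that family, was at 140.1, 115 and 128 FPKM in control and 104, 119 and 116 in salt and was not called (limma adjusted p = 0.385). Genes known to follow the clock in Arabidopsis were also lower: the histone demethylase JMJ30 (LotjaGi3g1v0496400) was at 20.3, 20.6 and 23.3 FPKM in control and 0.622, 0.945 and 0.681 in salt (limma log2 change -4.14 with SE 0.16, adjusted p = 1.28e-10). The RNA-binding protein GRP1A, an assembled transcript, went from 408 ± 150.1 to 93 ± 16.2 FPKM (log2 change -2.08, limma adjusted p = 1.31e-04).

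**Figure D4:**
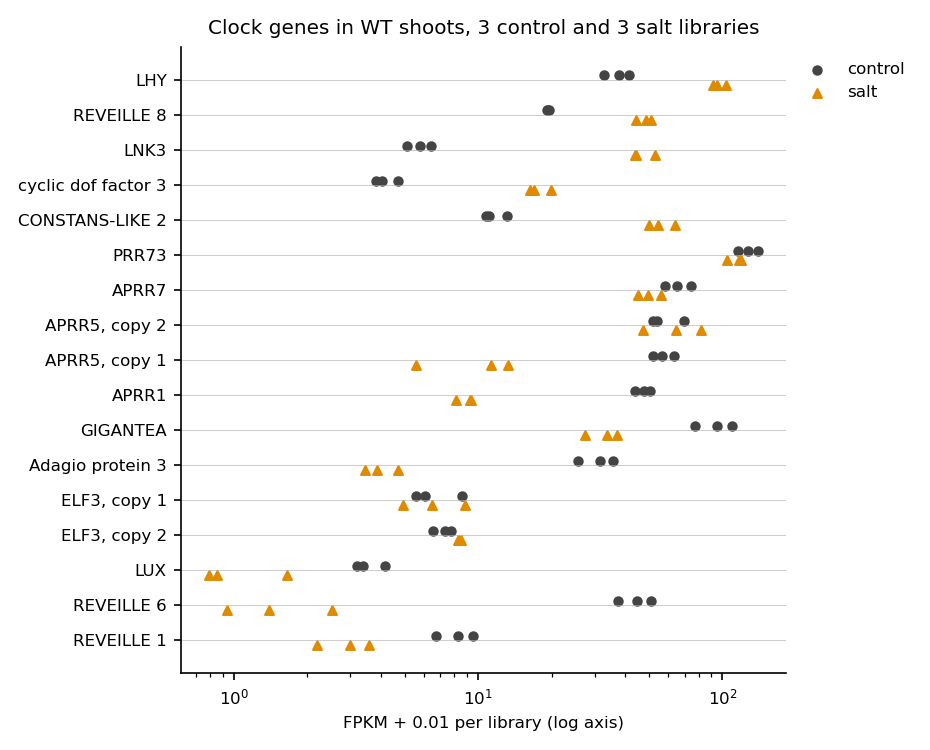
FPKM + 0.01 in each WT library (horizontal, log axis) of 17 clock genes, with the 3 control libraries as grey circles and the 3 salt libraries as orange triangles. The 5 genes at the top lie to the right in salt, APRR1, GIGANTEA, Adagio protein 3, LUX, the first copy of APRR5 and both REVEILLE genes at the bottom lie to the left, and for PRR73, APRR7, ELF3 and the second copy of APRR5 the groups overlap or lie close together.

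Several starch genes fell, and sugar transport genes moved both ways. The share called was 28.1% for starch and 32.9% for sugar transport and sucrose genes, against 16.3% over all tested genes. Beta-amylase 3 (LotjaGi2g1v0417900, chromosome 2, 91635245 to 91638787), the main enzyme of starch breakdown in Arabidopsis leaves at night, was at 167, 199 and 178 FPKM in the control libraries and 8.31, 15 and 17.5 FPKM in the salt libraries. It was among the strongest falls of an abundant transcript, with all salt values far below control (limma log2 change -3.75 with SE 0.23, adjusted p = 5.92e-09). The neighbouring copy LotjaGi2g1v0418000 was at 7.12, 9.99 and 10.2 FPKM in control and 2.13, 1.83 and 2.55 in salt (log2 change -1.84, limma adjusted p = 1.68e-05), and reads may be shared between such copies. Glucan water dikinase (LotjaGi4g1v0156400) and isoamylase 3 (LotjaGi1g1v0340200), which open the granule for the amylases, fell, with log2 changes of -0.86 and -0.82 (limma adjusted p = 5.33e-05 and 1.82e-05). On the synthesis side the large subunit of ADP-glucose pyrophosphorylase (LotjaGi1g1v0566100), the first committed step, fell from 86.1 ± 9.02 to 37.5 ± 2.98 FPKM (log2 change -1.19, limma adjusted p = 1.50e-06). Of the 32 tested starch genes 2 rose and 7 fell. The rises came to 0 without WT control replicate 1 and to 1 without WT salt replicate 1 or 3.

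Among 70 sugar transporters, invertases and sucrose enzymes 14 rose and 9 fell, falls that came to 5 without WT control replicate 2. SWEET14 (LotjaGi1g1v0335200), of the family of sugar exporters, was at 11.5, 11.5 and 9.94 FPKM in the control libraries and 52.2, 49.9 and 50.7 FPKM in the salt libraries. The 3 salt values were close together and far above control (limma log2 change 2.17 with SE 0.18, adjusted p = 1.99e-07). The soluble acid invertase LotjaGi4g1v0208900, which splits sucrose in the vacuole, was at 17.7, 15.7 and 14.8 FPKM in control and 49.8, 36.5 and 42.7 in salt (limma log2 change 1.39 with SE 0.14, adjusted p = 1.13e-06). Sucrose-phosphate synthase 3 (LotjaGi1g1v0042800), of sucrose synthesis, rose from 7.56 ± 0.773 to 14.4 ± 0.734 FPKM (log2 change 0.89, limma adjusted p = 6.33e-06). Sugar transport protein 13 (LotjaGi2g1v0456100), an importer of hexoses at the plasma membrane that is tied to defence in Arabidopsis, moved the other way, at 43.6, 49.9 and 56.2 FPKM in control and 7.82, 5.8 and 10.5 in salt (limma log2 change -2.59 with SE 0.20, adjusted p = 6.40e-08).

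Phosphate genes were called at a share of 50%, against 16.3% over all tested genes. More phosphate genes fell than rose, with 23 falls and 5 rises of 56 (median log2 change -0.26). Many of them are known in plants to be switched on by phosphate shortage. The sensor-type proteins SPX1 (LotjaGi4g1v0270900) and SPX2 (LotjaGi1g1v0199500) fell, with log2 changes of -1.38 and -1.33 (limma adjusted p = 2.21e-04 and 3.66e-04). Uptake was represented by the transporter LotjaGi5g1v0185300, described as low affinity, at 41.6, 58.9 and 55.9 FPKM in control and 8.96, 8.02 and 9.82 in salt (limma log2 change -2.47 with SE 0.20, adjusted p = 1.31e-07). The family of purple acid phosphatases, whose active members release phosphate from organic compounds, included LotjaGi3g1v0405700, described as the probably inactive member 29, at 25.4, 31.6 and 35 FPKM in control and 7.93, 5.79 and 6.97 in salt (limma log2 change -2.07 with SE 0.15, adjusted p = 4.39e-08). Lipid remodelling genes were lower as well: SQD2 (LotjaGi3g1v0211000) and MGD2 (LotjaGi4g1v0279400), which replace phospholipids by sulfo- and galactolipids, had log2 changes of -0.81 and -0.95, and the phosphodiesterase GDPD1 (LotjaGi1g1v0629200) went from 87 ± 27.2 to 19 ± 2.49 FPKM (limma adjusted p = 0.0023, 0.0041 and 1.40e-05). The chloroplast importer PHT2-1 (LotjaGi4g1v0158500) went against the rest, at 55.6, 64.2 and 66.1 FPKM in control and 133, 112 and 99.6 in salt (limma log2 change 0.88 with SE 0.10, adjusted p = 6.82e-06). Within the last 8 columns 13 phosphate genes fell.

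Nitrogen transporters moved in both directions. Called were 50.9% of them and 18.4% of iron and zinc genes, against 16.3% over all tested genes. Of 57 nitrate, ammonium and peptide transporters 12 rose and 17 fell, and falls came to 11 and 10 in the first 10 and last 8 columns. Transcripts of both parts of a high-affinity nitrate uptake system were lower. NRT2.5 (LotjaGi4g1v0155900) was at 6.59, 8.69 and 7.86 FPKM in control and 1.26, 2.19 and 2.3 in salt (limma log2 change -1.78 with SE 0.18, adjusted p = 1.63e-06), and its partner NRT3.1 (LotjaGi4g1v0227700) was at 96.2, 93.4 and 100.3 FPKM in control and 48, 42 and 51.9 in salt (limma log2 change -1.03 with SE 0.11, adjusted p = 2.13e-06). In both genes the groups were apart. Members of the NPF family that rose included NPF6.2 (LotjaGi4g1v0270100) and NPF5.1 (LotjaGi6g1v0082900), with log2 changes of 1.24 and 1.24 (limma adjusted p = 9.43e-07 and 1.57e-06). Asparaginase LotjaGi5g1v0031100, which frees nitrogen from asparagine, the main transport form in Lotus, was at 87.5, 130.2 and 105 FPKM in control and 304, 237 and 209.9 in salt (limma log2 change 1.22 with SE 0.19, adjusted p = 1.76e-04). Among 38 iron and zinc genes 1 rose and 6 fell (2 rises without WT control replicate 2 and 3 without WT salt replicate 3). The gene that rose was the chloroplast ferric reductase FRO7 (LotjaGi6g1v0277600), at 93.2, 81.4 and 74.3 FPKM in control and 210.2, 210.1 and 238 in salt (limma log2 change 1.40 with SE 0.11, adjusted p = 6.40e-08), and zinc transporter 3 (LotjaGi6g1v0028300) was lower, at 48.5, 52.4 and 52 FPKM in control and 22.4, 19.2 and 21.2 in salt (limma log2 change -1.27 with SE 0.15, adjusted p = 7.65e-06).

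Immune genes fell in large numbers, from receptors to the salicylate branch. Of 211 receptor-like kinases 9 rose and 72 fell (median log2 change -0.23), of 165 NLR-like receptors 1 rose and 35 fell (-0.25), of 64 WRKY factors 2 rose and 30 fell (-0.56), and of 108 pathogenesis-related genes 7 rose and 29 fell (-0.02). In that order 38.4%, 21.8%, 50% and 33.3% were called, and 52.6% in the salicylate list below, against 16.3% over all tested genes. Falls alone were 9.91% over all tested genes. Pathogenesis-related genes lay on both sides, 51 above 0 and 57 below. With a mean of at least 5 FPKM required, fewer genes were tested and 38 kinases, 9 NLR-like genes and 18 WRKY factors fell. NLR-like falls came to 22 and 15 in the first 10 and last 8 columns. The 9 kinase rises came to 5 without WT salt replicate 1, the 7 pathogenesis-related rises to 4 without WT control replicate 3, and the WRKY and NLR-like rises to between 0 and 2. The salicylate list had 0 rises and 10 falls of 19 (median -0.42), with 6 falls in the last 8 columns. EDS1 and its partners PAD4 and SAG101 pass signals on from NLR receptors. EDS1L (LotjaGi1g1v0185000) was at 44, 53.1 and 55.1 FPKM in control and 22.4, 20.9 and 21.8 in salt (limma log2 change -1.20 with SE 0.14, adjusted p = 5.45e-06). PAD4 (LotjaGi4g1v0411700, chromosome 4, 78765169 to 78771699) was at 28.1, 33.7 and 41.7 FPKM in the control libraries and 5.49, 5.55 and 5.68 FPKM in the salt libraries. Its salt values were nearly equal and lay far below every control value (limma log2 change -2.51 with SE 0.19, adjusted p = 5.57e-08). The gene LotjaGi2g1v0250800, described as the carboxylesterase SAG101, was at 3.3, 4.41 and 5.37 FPKM in control and 0.699, 0.558 and 0.118 in salt (limma log2 change -2.38 with SE 0.24, adjusted p = 2.08e-06). SARD1 (LotjaGi4g1v0454100, described as SAR DEFICIENT 1), an activator of salicylate synthesis in Arabidopsis, was at 8.83, 10.7 and 13.2 FPKM in control and 0.803, 0.758 and 0.673 in salt. All salt values were below 1 FPKM (limma log2 change -3.18 with SE 0.21, adjusted p = 1.82e-08). Its relative CBP60B (LotjaGi4g1v0049800) fell from 15.3 ± 1.79 to 3.87 ± 0.787 FPKM (limma log2 change -1.87 with SE 0.15, adjusted p = 1.06e-07). The salicylate receptor gene described by its BTB/POZ and ankyrin domains (LotjaGi6g1v0275700) changed less, by -0.41 (limma adjusted p = 0.016), and lost its call in 5 of 22 alternatives, among them those without WT control replicate 3 or WT salt replicate 3.

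Transcripts of defence products were lower too. Pathogenesis-related protein 10 (LotjaGi6g1v0254400) was at 204, 294 and 382 FPKM in control and 77.5, 48.7 and 66.9 in salt (limma log2 change -2.16 with SE 0.21, adjusted p = 1.26e-06), and the thaumatin-like gene LotjaGi4g1v0417500, of a family with antifungal members, was at 117, 314 and 103 FPKM in control and 11.2, 2.92 and 7.76 in salt (limma log2 change -4.50 with SE 0.45, adjusted p = 1.33e-06). Both had separate groups, and the control values of the thaumatin-like gene were spread widely. Plant cadmium resistance 2 (LotjaGi4g1v0455100), named for metal transport, was among the largest losses in level, at 251, 294 and 351 FPKM in control and 31.3, 28.2 and 38.7 in salt (limma log2 change -3.17 with SE 0.21, adjusted p = 1.45e-08). In addition, 23 genes with at least 5 FPKM on average in control were under 0.5 FPKM in every salt library, and 0 genes showed the reverse. Of the 23, 12 carried a protein name, 6 were assembled transcripts and 10 were listed at 0 in at least 1 salt library. Besides WRKY53 they included genes described as the NAC factor JUNGBRUNNEN 1 (LotjaGi3g1v0035600), at 7.48, 7.0 and 11.2 FPKM in control and 0.217, 0.0317 and 0.373 in salt, as the factor bHLH041 (LotjaGi6g1v0230900), at 9.31, 7.68 and 15.9 FPKM in control and 0.175, 0.0567 and 0.253 in salt, and as the receptor-like protein EIX1 (LotjaGi6g1v0027200), at 9.36, 11.3 and 11.9 FPKM in control and 0.139, 0.0397 and 0.41 in salt. EIX1 binds a fungal xylanase in tomato. The largest limma adjusted p of these 3 was 3.40e-07. The set was chosen after its values were seen.

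Isoflavonoid enzymes, which make phytoalexins and signal compounds of legumes, had the lowest median of the gene lists. Of 28 tested genes 0 rose and 17 fell, with a median log2 change of -1.68. That is 60.7% called, against 16.3% over all tested genes. The 17 falls include the 3 enzymes given here, from the deoxychalcone to a hydroxylation of isoflavones. The 6'-deoxychalcone synthase LotjaGi1g1v0006500, at the branch point, was at 113, 94.7 and 162 FPKM in control and 5.39, 4.53 and 6.68 in salt (limma log2 change -4.34 with SE 0.20, adjusted p = 6.37e-10). The 2-hydroxyisoflavanone synthase LotjaGi4g1v0063900, the entry to isoflavones, was at 58.3, 59.9 and 111 FPKM in control and 6.36, 2.29 and 3.04 in salt (limma log2 change -4.17 with SE 0.28, adjusted p = 1.90e-08). The isoflavone 2'-hydroxylase LotjaGi4g1v0019000, a later step, was at 148, 147 and 225 FPKM in control and 20.05, 12 and 15.4 in salt (limma log2 change -3.41 with SE 0.17, adjusted p = 1.16e-09). In all 3 the groups were far apart, and the third control library was the highest. The other 11 genes were not called. Some copies in these families lie side by side, so reads may be shared among them.

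Transcription factor genes were called in both directions. Among 92 AP2/ERF factors 6 rose and 25 fell, among 46 NAC factors 0 rose and 11 fell, and among 126 MYB and MYB-related factors 7 rose and 24 fell. In the bHLH family 14 rose and 6 fell of 97, and in the Dof family 8 rose and 2 fell of 30. Shares called in either direction were 33.7% for AP2/ERF, 23.9% for NAC, 24.6% for MYB, 20.6% for bHLH and 33.3% for Dof. Over all tested genes the share was 16.3%. The bHLH counts came to 4 rises and 3 falls in the first 10 columns and to 6 and 2 with a mean of at least 5 FPKM, where fewer genes were tested. At that mean the ERF falls came to 13 and the MYB falls to 13, and the MYB falls came to 15 in each set of columns. ERF098 (LotjaGi5g1v0180400) had the deepest fall of its family, at 22.9, 19.7 and 30.9 FPKM in control and 0.515, 1.11 and 0.285 in salt (limma log2 change -4.50 with SE 0.26, adjusted p = 3.46e-09). WRKY53 (LotjaGi1g1v0281800), a regulator of senescence and defence in Arabidopsis, was at 9.0, 8.96 and 13.3 FPKM in control and 0.0825, 0.0684 and 0.124 in salt (limma log2 change -4.18 with SE 0.25, adjusted p = 6.48e-09). A DREB3-type factor (LotjaGi4g1v0446300), of the family that binds dehydration-responsive elements, went the other way, at 2.67, 3.79 and 3.45 FPKM in control and 7.38, 6.63 and 7.86 in salt (limma log2 change 1.04 with SE 0.20, adjusted p = 0.0012). Several tested genes are described as MYB36, and LotjaGi4g1v0091600 was named because its adjusted p was among the smallest of the MYB falls. It was at 6.6, 6.45 and 6.05 FPKM in control and 0.727, 0.987 and 0.825 in salt in WT (limma log2 change -2.35 with SE 0.22, adjusted p = 5.44e-07). The other genes so described are not shown. The sources used here do not say whether LotjaGi4g1v0091600 is the gene mutated in the lines.

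The highest rises on the log2(FPKM + 0.5) scale among the named genes with a description were in genes low in control. Auxin-induced protein 15A LotjaGi3g1v0478000_LC, which lies outside the chromosome 3 stretch, was at 1.05, 2.46 and 1.11 FPKM in control and 18.8, 23 and 14.6 in salt (limma log2 change 3.29 with SE 0.27, adjusted p = 1.67e-07). Cytochrome P450 71D10 (LotjaGi1g1v0018100_LC), of an oxygenase family, was at 0.479, 0.58 and 0.419 FPKM in control and 5.8, 7.37 and 9.28 in salt (limma log2 change 2.99 with SE 0.30, adjusted p = 1.39e-06). In both genes every salt value lay far above every control value. Ammonium transporter 1 member 2 (LotjaGi5g1v0205600) was at 2.67, 6.03 and 3.52 FPKM in control and 50.8, 27.6 and 24.9 in salt (limma log2 change 2.93 with SE 0.34, adjusted p = 8.51e-06). The clock cofactor LNK3 (LotjaGi3g1v0315400), known in Arabidopsis as a partner of REVEILLE 8, was at 6.4, 5.75 and 5.11 FPKM in control and 44.2, 52.9 and 43.9 in salt (limma log2 change 2.93 with SE 0.15, adjusted p = 1.08e-09). Polyol transporter 5 (LotjaGi1g1v0570100), a carrier of sugar alcohols, was at 0.778, 2.39 and 1.11 FPKM in control and 10.2, 6.44 and 6.82 in salt (limma log2 change 2.17 with SE 0.36, adjusted p = 2.90e-04). In each of these genes the salt values stood clear of the control values. Nerolidol synthase 1 (LotjaGi2g1v0279700), which makes a volatile terpene, was at 1.3, 0.556 and 1.18 FPKM in control and 2.51, 5.81 and 29.96 in salt (log2 change 2.50, limma adjusted p = 0.011), with 1 salt library far above the others and a call lost in 3 alternatives, among them those with WT libraries alone and without WT salt replicate 3.

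**Figure D5:**
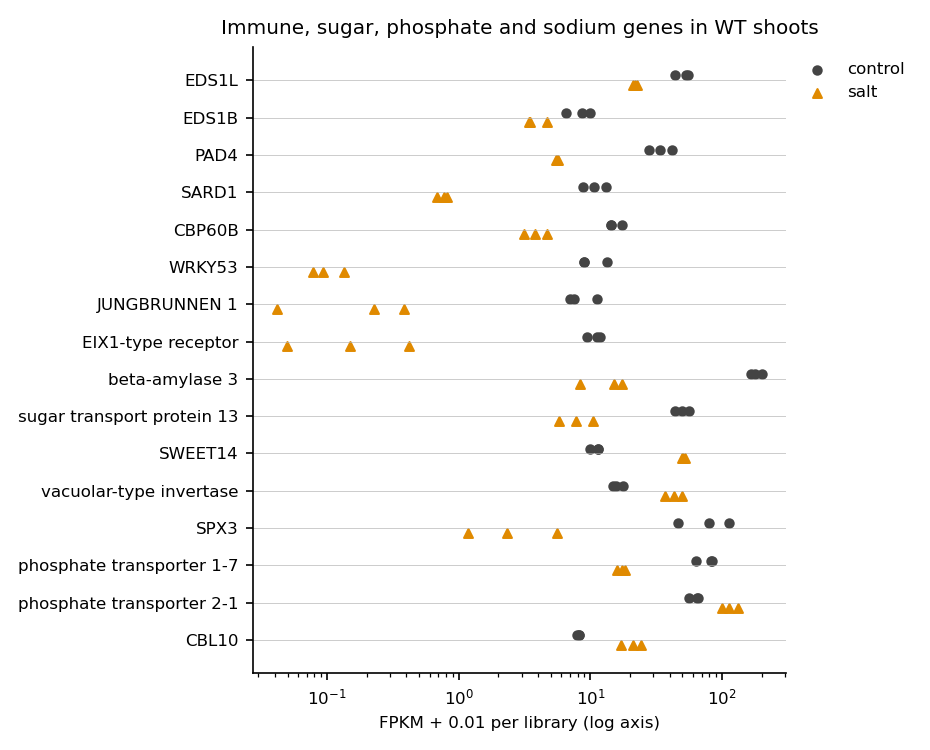
FPKM + 0.01 in each WT library (horizontal, log axis) of 16 genes of immunity, carbohydrate, phosphate and sodium, with 3 control libraries as grey circles and 3 salt libraries as orange triangles. Salt values lie to the left for the immune genes, beta-amylase 3, sugar transport protein 13, SPX3 and phosphate transporter 1-7, and to the right for SWEET14, the invertase, phosphate transporter 2-1 and CBL10.

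Counted in FPKM rather than in fold, the largest changes were in abundant transcripts of metal binding, vitamin B1, photosynthesis and polyamines. Metallothionein-like protein 2 (LotjaGi3g1v0224500), a small metal-binding protein, lost the most, from 11103 ± 469 to 7037 ± 549 FPKM (limma log2 change -0.66 with SE 0.11, adjusted p = 4.50e-04), a call lost in 3 of 22 alternatives (no filter, quantile normalization and the last 8 columns). Thiamine thiazole synthase 2 (LotjaGi5g1v0317600), of vitamin B1 synthesis, was at 1947, 2158 and 1856 FPKM in control and 688, 744 and 805 in salt, with all salt values under the controls (limma log2 change -1.41 with SE 0.10, adjusted p = 3.58e-08). S-adenosylmethionine decarboxylase (LotjaGi2g1v0286300), which supplies polyamine synthesis, was at 748, 743 and 752 FPKM in control and 1269, 1182 and 1108 in salt (limma log2 change 0.66 with SE 0.09, adjusted p = 5.24e-05). The GDSL lipase LotjaGi1g1v0441400, named CPRD49 after a drought-induced cowpea gene, was at 106, 101 and 116 FPKM in control and 471, 400.1 and 423 in salt (limma log2 change 1.99 with SE 0.12, adjusted p = 5.85e-09). Few genes of housekeeping groups were called, 1.02% of cytosolic ribosomal and 1.96% of proteasome genes, against 16.3% over all tested genes. Of 197 cytosolic ribosomal protein genes 1 rose and 1 fell (0 fell without WT control replicate 1 or 3 or WT salt replicate 1 or 2). Of 51 proteasome genes 1 rose and 0 fell (2 rose without WT control replicate 2). Summed ribosomal levels ranged from 17272 to 26914 FPKM among the control libraries and from 19961 to 24540 among the salt libraries. Such a spread limits what could be called.

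The WT response was also set against the mean response of both MYB36 lines. The same 6 WT libraries enter this test and the WT test, and all 18 libraries share the estimate of the spread. Overlap between the calls of these tests is therefore partly built in. The difference itself passed the threshold in 1667 of 20433 genes (8.16%, limma), 464 with a higher log2 change in WT and 1203 with a lower. Below, a higher or lower value in WT refers to this log2 change with salt, not to the transcript level. Levels in the lines are not given here. Genes that stayed high in the lines and genes low there in both conditions are therefore not told apart. Among the WT calls, 298 of the 1298 rises and 1059 of the 2025 falls also differed in their own direction, and 220 rises and 203 falls were called in both lines with the same sign. The groups differed in how far they did so. In the isoflavonoid list 17 of 28 genes had a lower value in WT and 0 a higher. Of the 52 SAUR genes 11 had a higher value in WT and 1 a lower. In the WRKY list 22 of 64 genes and among receptor-like kinases 58 of 211 had a lower value in WT, and in the salicylate list 7 of 19, while 0 genes of the WRKY and salicylate lists and 5 kinases had a higher value. PAD4 changed by -2.51 on the log2 scale in WT, against -0.46 in line 1 and -0.64 in line 2 (difference -1.96, SE 0.23, limma adjusted p = 2.83e-05). In the phosphate list the difference was called in 6 of 56 genes, 1 higher and 5 lower in WT, and 21 and 11 phosphate genes fell in line 1 and line 2, where 8.61% and 8.66% of all tested genes were called in either direction. For SQD2 the log2 change was -0.81 in WT, -0.95 in line 1 and -0.51 in line 2 (difference -0.07, SE 0.20, limma adjusted p = 0.898). For the clock 5 genes had a higher and 7 a lower value in WT. APRR1 had log2 changes of -2.35, -1.11 and -0.01 in WT, line 1 and line 2 (difference -1.78, SE 0.18, limma adjusted p = 8.73e-06), and LHY 1.37, 1.48 and 0.79 (difference 0.23, SE 0.14, limma adjusted p = 0.407). Beta-amylase 3 changed by -3.75 in WT, against -2.11 in line 1 and -0.19 in line 2 (difference -2.60, SE 0.28, limma adjusted p = 1.12e-05). CBL10 had 1.29, 0.54 and 0.38 (difference 0.83, SE 0.17, limma adjusted p = 0.0034). Counts for the difference came to 946 in the first 10 columns and 507 in the last 8.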

How the data were processed

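RNA from shoots was extracted by a CTAB method, selected for poly(A) and made into cDNA with dUTP second strands, per the labels' protocols. The authors deposited FPKM values per gene for 18 libraries, scaled within each library. The submitters' processing notes name fastp, featureCounts 1.5.0-p3 and DESeq2 1.20.0, per the labels with no role or order. Not given in the sources used here were aligner, genome build and the strand setting of counting. Values of overlapping or antisense genes and of near-identical copies are therefore uncertain. Coordinates were taken from the deposited table. Names come from its Swiss-Prot descriptions, by similarity, and transcription factor families from its family column. FPKM times gene length came out as whole reads, within 0.05 of a read, in 100% of values above 0, and depths are sums of these reads. Replicates of a WT group differed by more than sampling noise (median chi-square per gene 7.51 to 20.5). The table held 0 columns of samples outside the labels.

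Salt was tested with limma 3.58.1 (R 4.3.3), using log2(FPKM + 0.5) and eBayes with its trend option, over 18 libraries and 6 group means (12 residual degrees of freedom), 2-sided, with Benjamini-Hochberg adjustment over 20433 genes and a threshold of 0.05. The same model tested the WT salt effect minus the mean of that in the lines. The code was tested on simulated data. A list is described by its counts and median, with no set test, and membership follows patterns on the descriptions. Named genes are the 15 highest and 15 lowest called changes with a mean of at least 5 FPKM in the higher group, the 10 largest gains and losses in FPKM, the 3 members per list and direction with the smallest adjusted p, the most abundant member of the sodium and osmotic lists, and the 5 highest and lowest differences from the lines. The text names a part of these. Chosen after their values were seen were CBL4, exchanger 7, NCED1, cryptochrome-2, REVEILLE 1, REVEILLE 8, GIGANTEA, Adagio protein 3, LUX, ELF3, the APRR5 copies, PRR73, glucan water dikinase, isoamylase 3, SPX1, SPX2, SQD2, MGD2, GDPD1, EDS1L, NPR1, EIX1 and, in the plots, the further clock and immune genes. The members and lists were chosen with earlier results of these data known. Alternatives were other pseudocounts, filters and scalings, the replicate block, library set or column block as a term, subsets of columns, robust eBayes, array weights, voom on recovered reads, WT libraries alone and leaving out each library. Sequences are not shown, since none of this species was used here.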

Additional observations from a re-analysis of the deposited data

Results flagged for a closer look

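Some of the WT changes differed from the mean change in the MYB36 lines by the test of the difference itself (limma), and those with the highest and lowest values among genes called in both tests are given here as log2 differences, WT minus lines. They were picked for that value, so their size is a description. Lower in WT were chalcone synthase 4 (LotjaGi2g1v0450100) at -4.54, ERF098 (LotjaGi5g1v0180400) at -4.48, another chalcone synthase (LotjaGi2g1v0446700) at -4.43, phenylalanine ammonia-lyase 1 (LotjaGi3g1v0071500) at -4.37 and the 2-hydroxyisoflavanone synthase LotjaGi4g1v0063900 at -4.33. Phenylalanine ammonia-lyase and chalcone synthase are the entries to phenylpropanoids and flavonoids. Higher in WT were the SAUR-type genes described as ARG7, LotjaGi3g1v0516600 at 2.48 and LotjaGi3g1v0516400 at 1.94, and as auxin-induced protein 15A, LotjaGi3g1v0478000_LC at 1.85. Cytochrome P450 71D10 (LotjaGi1g1v0018100_LC) at 2.02 and the unnamed gene LotjaGi5g1v0326000 at 2.02 were higher too. In the lines themselves chalcone synthase 4 changed by -0.11 and -0.02 on the log2 scale, against -4.61 in WT, and ARG7 LotjaGi3g1v0516600 by 0.10 and -0.98, against 2.04.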

How the results depend on the processing

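The number of genes changed by salt in WT stayed within 1.5 times of 3323 in all alternatives except within the first 10 columns, which hold 2 WT libraries a group, where it was 2129. It was 2367 in the last 8 columns, with 1 WT library a group assumed to vary like the other groups, 4663 with array weights, 2567 with the WT libraries alone, and 2612 to 2959 when libraries were left out in turn. The difference from the lines, 1667 genes, came to 946 in the first 10 columns, 507 in the last 8 and 2996 with array weights, and to 1202 to 1735 when libraries were left out in turn. The causes were not tested. With the replicate number as a block 3257 genes were called, 3173 of them the same genes in the same direction, and 1613 for the difference. Deviations of same-numbered WT control and salt libraries correlated at -0.29, -0.15 and 0.02. The highest value, 0.38, was for WT control replicate 2 and WT salt replicate 1, both in the last 8 columns. Since the main axis of variation within groups follows the column blocks, these values cannot decide whether replicate numbers pair the samples. Among the named genes no direction reversed in the alternatives run. Of 376 called named genes 248 kept their call in every alternative run and 282 in every one but the last 8 columns. The planned fit to the lower library set alone was not run, because that set did not hold 2 libraries of each WT group; the column blocks, chosen after seeing the data, took its place. P-values cover only the spread between these libraries, and in the lowest of 4 groups of genes by mean FPKM 2.82% rose and 7.11% fell.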
